A study of Homo sapiens with 12 samples.

Results

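The genes of DNA replication and S phase were followed in U251 cells, an established human glioblastoma line, treated with carmofur or vehicle. The set held 50 genes, taken as a list of origin, helicase, polymerase, clamp loader and S phase checkpoint genes and matched by symbol among the 60107 Ensembl identifiers of the count table. Each of the 50 symbols was found. The 12 libraries were 3 vehicle and 3 carmofur libraries of cells labeled U251P and the same numbers of cells labeled U251T. The labels do not say what P and T stand for. In both lines the cells adhered, were serum-starved for 16 h and were kept for 24 h in full media with either DMSO, the vehicle, or carmofur; the study's methods place carmofur in the starvation period as well, and the labels give no dose. The labels name no genetic change in any group. Carmofur is a fluorouracil derivative that inhibits acid ceramidase (ASAH1), the enzyme that cleaves ceramide, and the experiment asked which transcripts respond to it.

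A dividing cell copies its genome once. In G1, the origin recognition complex, CDC6 and CDT1 load the MCM helicase onto origins, a step known as licensing that geminin (GMNN) blocks. At the start of S phase CDC45 and the GINS complex switch the helicase on, primase and polymerase alpha lay down primers, polymerases delta and epsilon extend them, and PCNA, a ring loaded by replication factor C, holds the polymerases on DNA. RPA coats single strands, FEN1 and LIG1 join Okazaki fragments, and claspin (CLSPN) and CHEK1 watch over the forks. Transcription of many of these genes is known to rise towards S phase under E2F factors, and glioblastoma lines in culture express them as dividing cells do.

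Since many of these genes are known to share this control, the stretch around the start site was read for words that E2F factors are known to bind. RefSeq promoters (build GRCh38.p14, 250 bases before to 50 bases after the start) were given for 41 of the 50 genes. The words searched were TTTGGCGC, TTTCGCGC, TTTCCCGC and TTTGCCGC on both strands, where neighbouring matches may overlap. At least 1 word stood in 19 of the 41 promoters (46.3%), against 3.33% of the 27305 promoters in the table. Those 27305 promoters were not chosen to resemble the 41 in base composition or expression, which limits this and the next comparisons. CCAAT, the word of the factor NF-Y, stood in 25 of 41 (61%), against 35.7% of all promoters, and TTTGAA, the word of the CHR element that is known from mitotic genes, stood in 0 of 41, against 15.4%. The following 6 promoters were chosen among genes that fell with carmofur in U251T and hold an E2F word. CDC6, MCM3 and MCM7 belong to origin licensing, E2F1 to transcription, CLSPN to the checkpoint and PCNA to the clamp. The E2F words are in capitals: CDC6 at chr17:40287629-40287928 (plus strand), MCM3 at chr6:52284693-52284992 (minus strand), MCM7 at chr7:100101348-100101647 (minus strand), E2F1 at chr20:33686336-33686635 (minus strand), CLSPN at chr1:35769929-35770228 (minus strand) and PCNA at chr20:5126573-5126872 (minus strand).
CDC6: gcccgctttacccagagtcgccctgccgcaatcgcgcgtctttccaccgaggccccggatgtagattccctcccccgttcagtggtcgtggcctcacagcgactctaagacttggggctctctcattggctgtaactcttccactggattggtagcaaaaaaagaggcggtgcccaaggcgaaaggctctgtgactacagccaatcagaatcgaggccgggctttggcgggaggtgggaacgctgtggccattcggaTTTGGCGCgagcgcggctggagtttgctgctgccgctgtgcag
MCM3: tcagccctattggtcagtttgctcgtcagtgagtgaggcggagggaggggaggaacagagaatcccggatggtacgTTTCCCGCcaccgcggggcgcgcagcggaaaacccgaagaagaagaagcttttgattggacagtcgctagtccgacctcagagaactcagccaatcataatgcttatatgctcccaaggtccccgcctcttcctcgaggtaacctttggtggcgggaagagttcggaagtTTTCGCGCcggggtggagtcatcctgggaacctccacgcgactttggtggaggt
MCM7: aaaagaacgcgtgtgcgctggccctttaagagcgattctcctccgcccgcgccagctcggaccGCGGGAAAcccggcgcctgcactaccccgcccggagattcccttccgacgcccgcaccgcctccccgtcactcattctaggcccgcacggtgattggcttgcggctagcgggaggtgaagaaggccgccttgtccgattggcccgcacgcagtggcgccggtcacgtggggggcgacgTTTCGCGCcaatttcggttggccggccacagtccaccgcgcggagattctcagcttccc
E2F1: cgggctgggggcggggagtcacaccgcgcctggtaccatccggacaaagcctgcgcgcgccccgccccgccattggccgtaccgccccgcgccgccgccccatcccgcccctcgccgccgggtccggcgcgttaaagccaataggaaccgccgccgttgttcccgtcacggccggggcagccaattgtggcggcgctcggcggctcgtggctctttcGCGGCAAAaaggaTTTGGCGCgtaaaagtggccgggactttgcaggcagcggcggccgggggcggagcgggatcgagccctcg
CLSPN: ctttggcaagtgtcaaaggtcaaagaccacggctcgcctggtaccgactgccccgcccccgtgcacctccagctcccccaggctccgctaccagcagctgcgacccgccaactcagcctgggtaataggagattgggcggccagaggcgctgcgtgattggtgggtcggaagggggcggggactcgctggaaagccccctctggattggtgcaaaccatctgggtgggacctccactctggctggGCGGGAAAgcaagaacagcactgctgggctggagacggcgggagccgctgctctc
PCNA: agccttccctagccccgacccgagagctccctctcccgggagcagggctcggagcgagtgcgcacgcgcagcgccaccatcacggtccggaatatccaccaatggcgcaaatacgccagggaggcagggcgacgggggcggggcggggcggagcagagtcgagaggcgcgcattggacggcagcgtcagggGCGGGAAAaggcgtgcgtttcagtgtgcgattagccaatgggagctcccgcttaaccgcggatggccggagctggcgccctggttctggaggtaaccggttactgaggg
The promoters of MCM3, MCM7 and E2F1 held 2 words each and the others 1. A match describes the letters only.

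Libraries labeled U251T stood apart from U251P in the 10 glioma line markers, some lower and some higher. Nestin (NES), at 376 to 459 CPM (counts scaled to a common library total) in the U251P libraries, lay between 0 and 2.61 CPM in U251T, and SOX2 was 97.7 to 160.5 CPM in U251P and at most 1.03 CPM in U251T. EGFR was at least 64.6 CPM in U251P and at most 13.0 CPM in U251T, and CD44 was 917 to 1104 CPM and 554 to 805 CPM. In the other direction, vimentin (VIM) was 2516 to 3252 CPM in U251P and 7046 to 13534 CPM in U251T, and GFAP was at most 0.303 CPM in U251P and 20.9 to 83.0 CPM in U251T. SOX9 overlapped, at 107.6 to 157.2 CPM and 118.5 to 208.5 CPM, and FABP7, S100B and CHI3L1 were at most 16.4 CPM in any library, with the last pair at 0 throughout U251T. Fibroblast collagens were high in U251T, with COL1A1 between 1282 and 1929 CPM against 4.34 to 7.89 CPM in U251P. Of the other fibroblast markers, COL1A2, COL3A1 and DCN were higher in U251T too. PDGFRA was lower there, at 17.75 to 39.1 CPM against 50.1 to 63.9 CPM in U251P, and LUM was at 0 in each of the 12 libraries. Counts of the mitochondrial gene MT-CO3 were 8692 to 10713 CPM in U251P and 12.4 to 211 CPM in U251T, while its nuclear copy MTCO3P13 held 0 to 0.303 CPM and 10227 to 16503 CPM. Processed pseudogenes took 8.51% to 9.41% of the U251T counts and 0.144% to 0.169% of the U251P counts. Of 7241 protein-coding genes at 10 CPM or more in every U251P library, 231 (3.19%) had no count in any U251T library. The origin of these differences was not tested, and the lines are called here by their labels. Total counts were 3295045 to 6350873 in U251P and 383633 to 2817379 in U251T, so that low genes are measured less precisely in U251T. Levels of single replication genes below are TMM-normalized CPM, scaled within each line. All other levels, namely sums, markers, MTCO3P13, the filter cutoff and limits for a count of 0, are CPM of the library total. Nothing in the labels says whether the replicates were separate cultures, while the study's methods describe all experiments as done in biological triplicates. The p-values measure the spread between these libraries.

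In U251P, no replication gene passed the test for a change with carmofur. All 50 passed the filter on low counts, and 0 of 50 were called by edgeR's quasi-likelihood test at an adjusted p-value under 0.05. The background was the same, with 0 of 11426 genes called (percent called 0), and 402 of all genes (3.52%) had an unadjusted p-value under 0.05 against 0 of the 50 replication genes. DESeq2 also called 0 of 50, again with 0 at an unadjusted p-value under 0.05, and 0 of all genes, with 235 at an unadjusted p-value under 0.05. The median log2 fold change over the 50 genes was 0.02, beside -0.00 over all genes, with 23 lower and 27 higher and values from -0.43 to 0.43. For 38 of the 50 the estimate lay within 1 standard error (SE) of 0.

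The summed level of the 50 genes in U251P was 4006, 3544 and 3401 CPM of library in the vehicle libraries and 3860, 3510 and 3350 CPM with carmofur, so that the groups overlapped and the carmofur mean was 97.9% of the vehicle mean. In U251T the sums were 3340, 3422 and 3192 CPM with vehicle and 1526, 1374 and 1455 CPM with carmofur. All 3 carmofur libraries lay below the lowest vehicle library, and the carmofur mean was 43.7% of the vehicle mean. ATAD2 and E2F1 hold a large part of the U251T sum, and without them the carmofur mean was 51.4% of the vehicle mean. In bulk RNA, fewer cells in S phase and less RNA of these genes per cell cannot be told apart.

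**Figure D1:**
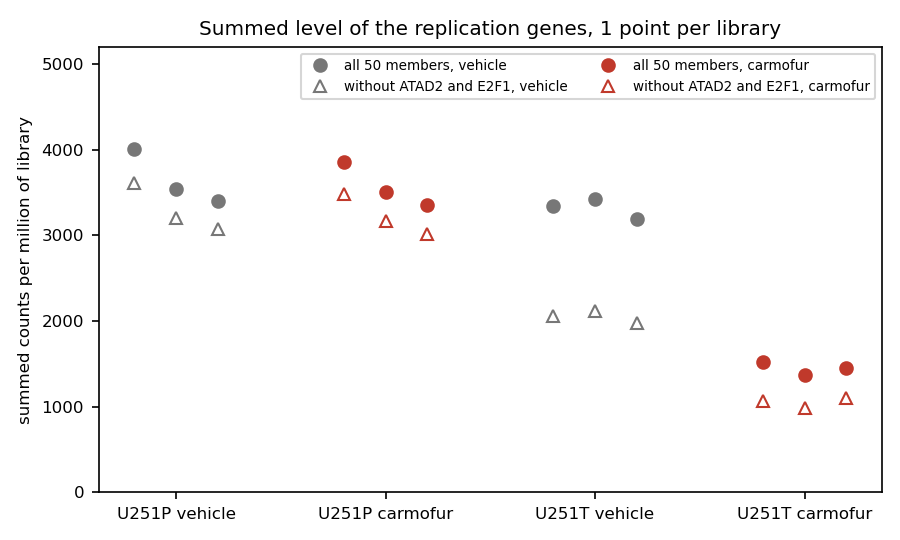
Summed level (vertical axis, CPM of library) of the 50 replication genes (filled circles) and of the same genes without ATAD2 and E2F1 (open triangles), 1 point per library, in the 4 groups. The U251P groups overlap, and the 3 U251T carmofur libraries lie between 1374 and 1526 CPM, below the vehicle libraries at 3192 to 3422 CPM.

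In U251T, 20 replication genes fell with carmofur and 0 rose. Only 30 of the 50 passed the filter in this line, and 20 of these 30 (66.7%) were called lower, where 8.2% of the 7204 genes tested were called lower and 8.88% higher. The median log2 fold change of the 30 was -1.30, with all 30 below 0, beside 0.01 over all genes. These values describe the genes that passed, since a gene could pass the filter through its vehicle libraries alone. Of the 30, 20 reached the cutoff of 9.77 CPM in each of the 3 carmofur libraries too, and 14 of those 20 were called lower, as were 6 of the other 10. These 6 were GMNN, MCM4, GINS1, RPA2, LIG1 and TIMELESS. They reached the cutoff in all 3 vehicle libraries but not in all 3 carmofur libraries. Their falls, given below, thus come from genes that the filter kept through the group where they are high. When at least 10 counts were required in every library, 14 of the 50 genes were left and 11 were called, all lower. The share called over all genes is not given here for that setting. DESeq2 called 15 of the 49 genes that it fitted, all lower, where it called 432 of 17843 genes lower and 434 higher.

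Other measures moved with treatment in U251T as well. Of 10 glioma line markers, 4 could be tested, of which VIM and GFAP fell and SOX9 and CD44 rose. VIM was 11009 to 13534 CPM with vehicle and 7046 to 9016 CPM with carmofur. The summed level of 6 fibroblast markers was 1974 to 2282 CPM with vehicle and 2621 to 2813 CPM with carmofur, with 2 of the 5 tested called higher (COL1A1 and COL3A1) and LUM at 0 throughout. MTCO3P13 was 10227 to 10893 CPM with vehicle and 13493 to 16503 CPM with carmofur, without overlap. Total counts were 566061 to 2817379 with vehicle and 383633 to 1078340 with carmofur. Their part in the fall of the replication genes was not tested, apart from depth. With each U251T library thinned to 383633 counts, 20 of the 50 genes could be tested and 12 were called, all lower. The share called over all genes is not given here for the thinned libraries.

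**Figure D2:**
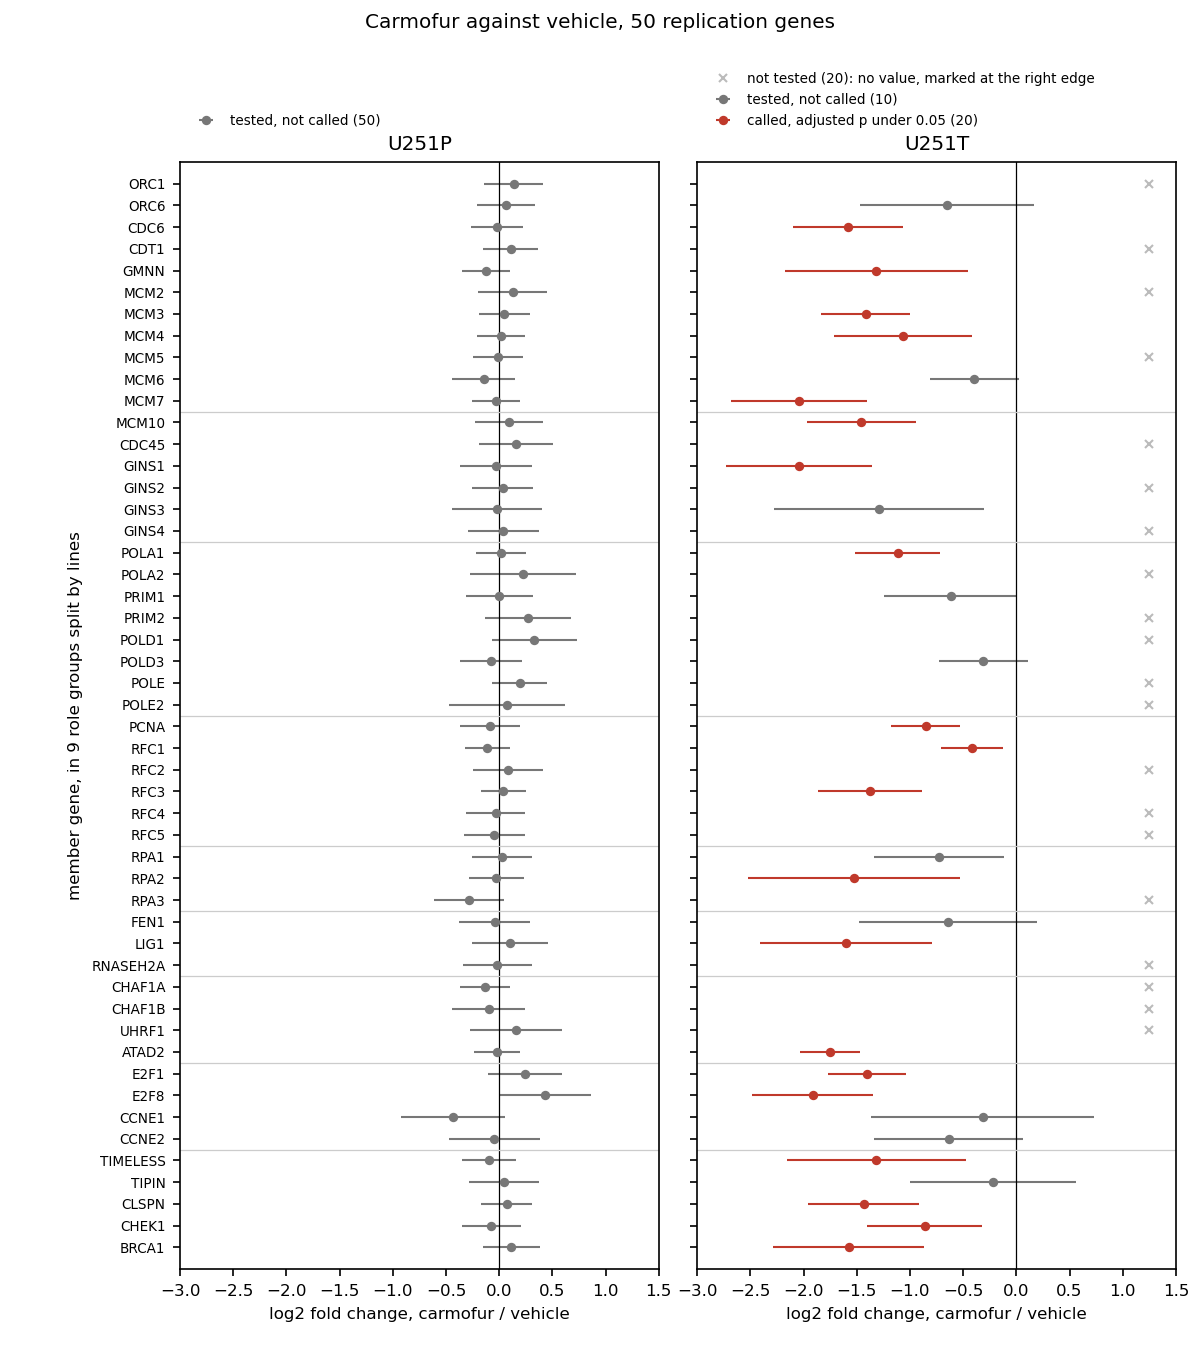
Log2 fold change of carmofur over vehicle (horizontal axis) with its 95% interval for each of the 50 genes (rows, split by lines into 9 role groups) in U251P (left) and U251T (right). The U251P values lie between -0.43 and 0.43 with none called, and in U251T the 20 genes called (red) lie between -2.04 and -0.42, with 20 genes not tested.

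Origin licensing held 11 of the genes, of which 7 could be tested in U251T and 5 fell. Levels are those of U251T unless U251P is named. CDC6, the loader of the helicase, stood at 99.9, 98.1 and 61.6 CPM with vehicle and 28.97, 28.0 and 34.3 CPM with carmofur. It fell by 1.58 on the log2 scale (SE 0.25, adjusted p = 0.000198), in edgeR's quasi-likelihood test as for every adjusted p-value below. In U251P its levels were 119, 93.3 and 95.9 CPM with vehicle and 99.1, 104 and 102 CPM with carmofur, which overlapped (log2 change -0.02, 95% interval -0.26 to 0.22). GMNN, the inhibitor of CDT1, was 31.7, 40.8 and 33.4 CPM with vehicle and 4.14, 18.4 and 26.4 CPM with carmofur and fell by 1.32 on the log2 scale (SE 0.41, adjusted p = 0.0331). The 3 GMNN values with carmofur were spread from 4.14 to 26.4 CPM, all under the vehicle values.

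Of the 6 helicase subunits, MCM3, MCM4 and MCM7 fell in U251T, MCM6 did not pass the test, and MCM2 and MCM5 were too low to be tested. MCM7 was 52.6, 79.6 and 82.7 CPM with vehicle and 11.4, 18.4 and 26.4 CPM with carmofur and fell by 2.04 on the log2 scale (SE 0.30, adjusted p = 0.000125). MCM3 was 153, 172 and 125 CPM with vehicle and 64.2, 57.0 and 44.8 CPM with carmofur and fell by 1.42 on the log2 scale (SE 0.20, adjusted p = 6.8e-05). The carmofur values of both lay below their vehicle values in every library. MCM4 was 55.7, 45.3 and 40.5 CPM with vehicle and 30.0, 23.2 and 7.91 CPM with carmofur and fell by 1.07 on the log2 scale (SE 0.31, adjusted p = 0.0232). MCM6 was 92.9, 86.8 and 82.7 CPM with vehicle and 64.2, 76.4 and 55.4 CPM with carmofur, also without overlap, but its log2 change of -0.39 (95% interval -0.81 to 0.02) did not pass the threshold (adjusted p = 0.191). MCM7 overlaps AP4M1 on the other strand, and since strand use in the counting is not stated, reads of the neighbour cannot be separated from its own.

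MCM2 had 11, 19 and 4 counts in the vehicle libraries and 1, 2 and 0 in the carmofur libraries in U251T, and MCM5 had 11, 18 and 7 counts in the vehicle libraries and 3, 2 and 0 in the carmofur libraries. Both were sparse in every library of that line. In U251P the helicase subunits were well covered: MCM2 was 122, 97.2 and 96.6 CPM with vehicle and 147, 94.6 and 102 CPM with carmofur (log2 change 0.13, 95% interval -0.20 to 0.45), MCM7 was 187 to 203 CPM and 175 to 215 CPM (log2 change -0.03, 95% interval -0.26 to 0.20), and MCM3 was 100.5 to 130.2 CPM and 110.5 to 127 CPM (log2 change 0.05, 95% interval -0.19 to 0.29). These groups overlapped for each subunit. ORC6, a part of the origin recognition complex, was 21.7, 27.2 and 15.8 CPM with vehicle and 20.7, 7.73 and 15.8 CPM with carmofur, which overlapped (log2 change -0.65, 95% interval -1.47 to 0.17). CDT1 had 1, 1 and 0 counts in the vehicle libraries and 1, 0 and 2 in the carmofur libraries in U251T, against 290, 169 and 284 counts in the U251P vehicle libraries. Such counts allow no comparison in U251T.

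Helicase activation held 6 genes, of which 3 could be tested in U251T and 2 fell. GINS1, a subunit of the GINS complex, was 40.3, 37.4 and 36.9 CPM with vehicle and 8.28, 10.6 and 7.91 CPM with carmofur and fell by 2.04 on the log2 scale (SE 0.33, adjusted p = 0.00025). MCM10, which helps the helicase to start, was 59.6, 75.1 and 77.4 CPM with vehicle and 28.97, 23.2 and 23.7 CPM with carmofur and fell by 1.46 on the log2 scale (SE 0.24, adjusted p = 0.000394). The carmofur libraries of both genes were close to each other and far below the vehicle libraries. GINS3 was 17.8, 21.5 and 10.6 CPM with vehicle and 3.10, 9.67 and 10.5 CPM with carmofur, with a log2 change of -1.29 that missed the threshold (SE 0.47, adjusted p = 0.0681). CDC45, the helicase cofactor, had 6, 25 and 3 counts in the vehicle libraries and 0, 1 and 1 in the carmofur libraries and was not tested. GINS2 had 0 counts in every U251T library, which with 3 counts as the limit that a count of 0 allows leaves up to 1.06 CPM in the deepest library and up to 7.82 CPM in the shallowest. GINS4, another subunit, had 0, 1 and 0 counts in the vehicle libraries and 0, 1 and 0 in the carmofur libraries in U251T. In U251P GINS2 was 37.2, 35.4 and 35.0 CPM with vehicle and 35.3, 40.5 and 34.0 CPM with carmofur (log2 change 0.03, 95% interval -0.26 to 0.32). The limit given for a count of 0 covers counting error only.

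Among 8 genes of the polymerases and primase, 3 could be tested in U251T and 1 fell. POLA1, the catalytic subunit of polymerase alpha, was 129, 133 and 109 CPM with vehicle and 53.8, 58.0 and 63.3 CPM with carmofur and fell by 1.12 on the log2 scale (SE 0.19, adjusted p = 0.000461). In U251P it was 105, 98.7 and 117 CPM with vehicle and 101, 104 and 121 CPM with carmofur (log2 change 0.02, 95% interval -0.22 to 0.25). PRIM1, the primase subunit that makes the RNA primer, was 43.4, 67.6 and 26.4 CPM with vehicle and 31.0, 34.8 and 29 CPM with carmofur. The groups overlapped, the vehicle values being widely spread, and the log2 change was -0.62 (95% interval -1.25 to 0.01). POLD3, of polymerase delta, had a log2 change of -0.31 (95% interval -0.73 to 0.11). POLE2, of polymerase epsilon, had 19, 27 and 12 counts in the vehicle libraries and 1, 2 and 1 in the carmofur libraries in U251T. It did not pass the filter and was called lower when no filter was set. POLA2, of polymerase alpha, and PRIM2, the other primase subunit, were too low as well, with at most 13 and 11 counts in any U251T library. POLD1, the catalytic subunit of polymerase delta, was 1 of the 2 genes with the smallest p-values among those higher in U251P, at 12.4, 13.4 and 13.0 CPM with vehicle and 15.9, 14.3 and 18.7 CPM with carmofur, without overlap, but with a log2 change of 0.33 (95% interval -0.07 to 0.73). POLE (log2 change 0.19, 95% interval -0.07 to 0.45) and ORC1 (0.14, 95% interval -0.14 to 0.42) were also higher without overlap in U251P and were not called.

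**Figure D3:**
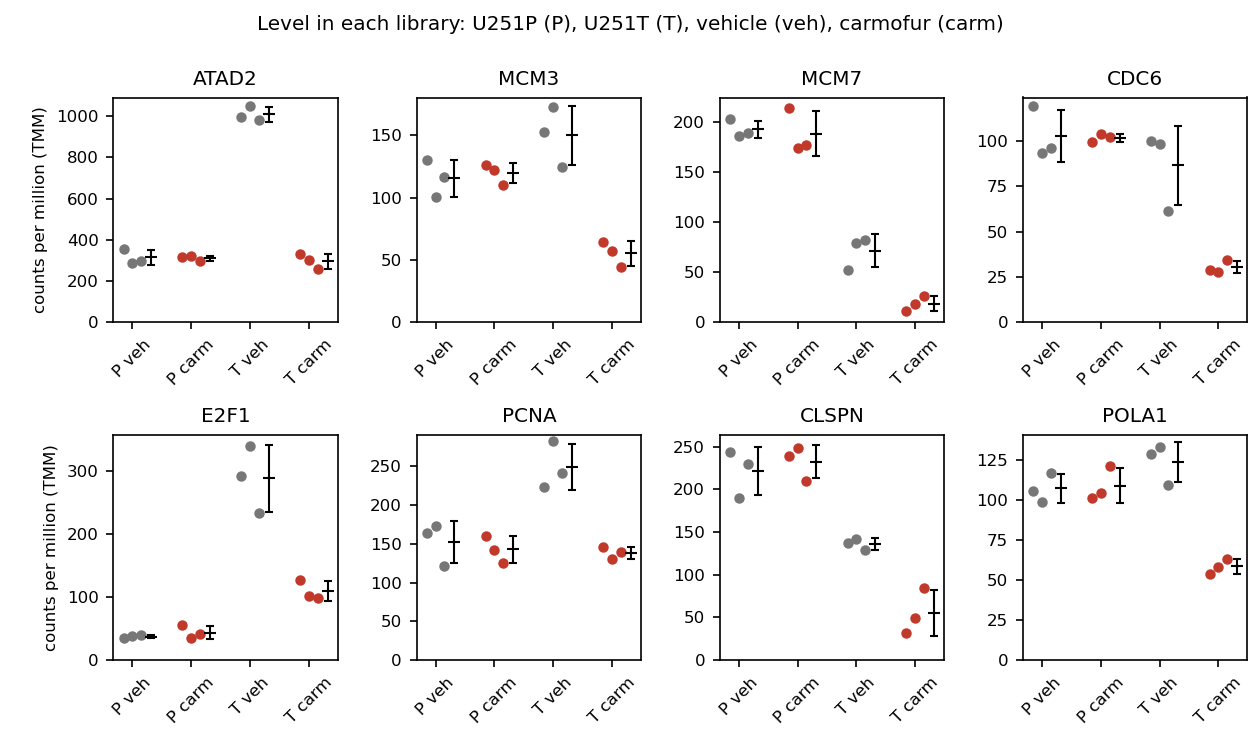
TMM-normalized level (vertical axes, CPM, each from 0) of 8 replication genes in every library of U251P (P) and U251T (T) with vehicle (grey) or carmofur (red), with the mean and SD of 3 libraries in black. In each panel the U251T carmofur libraries lie below the U251T vehicle libraries, while the U251P groups overlap; ATAD2 fell from between 982 and 1049 CPM to between 258 and 330.1 CPM in U251T.

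Of the clamp and its loader, PCNA, RFC1 and RFC3 could be tested in U251T and all 3 fell. PCNA was 224, 282 and 241 CPM with vehicle and 146, 131 and 139.7 CPM with carmofur and fell by 0.85 on the log2 scale (SE 0.16, adjusted p = 0.000841). In U251P it was 164, 172 and 121 CPM with vehicle and 161, 142 and 126 CPM with carmofur, which overlapped (log2 change -0.09, 95% interval -0.37 to 0.20). Processed copies of PCNA were counted in U251T, with 19 counts for PCNAP1, 18 for PCNAP4 and 48 for PCNAP3 over the 6 libraries and 0 in U251P, few beside the 53 to 748 counts of PCNA itself in each library. RFC3 was 79.7, 126 and 100.3 CPM with vehicle and 45.5, 35.8 and 36.9 CPM with carmofur and fell by 1.38 on the log2 scale (SE 0.23, adjusted p = 0.000431). RFC1, the large subunit of the loader, was 303, 304 and 269 CPM with vehicle and 221, 208 and 235 CPM with carmofur and fell by 0.42 on the log2 scale (SE 0.14, adjusted p = 0.0471), the smallest fall among the genes called. The RFC1 groups did not overlap, and its adjusted p-value lay just under the threshold. RFC2 had 19, 25 and 11 counts in the vehicle libraries and 9, 7 and 1 in the carmofur libraries and RFC4 8, 40 and 5 counts in the vehicle libraries and 3, 1 and 3 in the carmofur libraries, too few for the test.

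RPA2, of the single-strand binding complex, was 14.7, 17.0 and 17.6 CPM with vehicle and 3.10, 5.80 and 10.5 CPM with carmofur and fell by 1.53 on the log2 scale (SE 0.47, adjusted p = 0.0329). RPA1, its large subunit, was 36.4, 34.0 and 42.2 CPM with vehicle and 22.8, 26.1 and 13.2 CPM with carmofur, without overlap, at a log2 change of -0.73 (SE 0.29, adjusted p = 0.0954). RPA1 thus missed the threshold, and RPA2, at fewer counts, passed it. RPA3 was among the 2 genes with the smallest p-values on the lower side in U251P, at 107, 102 and 67.5 CPM with vehicle and 85.5, 69.5 and 70.3 CPM with carmofur. These groups overlapped, and the log2 change was -0.29 (95% interval -0.62 to 0.04). In the processing of Okazaki fragments, LIG1, the ligase, was 22.4, 26.4 and 28.2 CPM with vehicle and 11.4, 6.77 and 5.27 CPM with carmofur in U251T and fell by 1.60 on the log2 scale (SE 0.38, adjusted p = 0.00679). FEN1, the flap nuclease, was 21.7, 25.7 and 8.80 CPM with vehicle and 14.5, 14.5 and 7.91 CPM with carmofur, which overlapped (log2 change -0.64, 95% interval -1.48 to 0.20). RNASEH2A, which removes RNA from primers, had 4, 8 and 3 counts in the vehicle libraries and 3, 0 and 2 in the carmofur libraries in U251T and was not tested. In U251P, LIG1 and FEN1 gave log2 changes of 0.11 (95% interval -0.25 to 0.46) and -0.04 (95% interval -0.38 to 0.29).

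ATAD2, a bromodomain protein of newly copied chromatin, had the smallest p-value of the set. It was 994, 1049 and 982 CPM with vehicle and 330.1, 302 and 258 CPM with carmofur and fell by 1.75 on the log2 scale (SE 0.13, adjusted p = 9.5e-08). The SDs of 36.0 CPM with vehicle and 36.1 CPM with carmofur (n = 3 each) were small beside the difference of the means of 1008 and 297 CPM. In U251P, ATAD2 was 356, 289 and 299.8 CPM with vehicle and 316, 319 and 295 CPM with carmofur (log2 change -0.02, 95% interval -0.24 to 0.20). CHAF1A, of the chromatin assembly factor that places histones behind the fork, had 530, 291 and 532 counts in the U251P vehicle libraries but 1 count over the 6 U251T libraries. UHRF1, which recognizes hemimethylated DNA, had 2, 3 and 0 counts in the vehicle libraries and 0, 0 and 0 in the carmofur libraries in U251T. No comparison could be made for either in that line.

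Of the transcription and cyclin E genes, E2F1 and E2F8 fell in U251T while CCNE1 and CCNE2 did not pass the test. E2F1, an activator of S phase genes, was 292, 339 and 232 CPM with vehicle and 127, 102 and 97.5 CPM with carmofur and fell by 1.40 on the log2 scale (SE 0.17, adjusted p = 2.5e-05). E2F8, an E2F factor that represses, was 62.7, 69.8 and 61.6 CPM with vehicle and 12.4, 21.3 and 18.5 CPM with carmofur and fell by 1.91 on the log2 scale (SE 0.27, adjusted p = 7.5e-05). For both factors, the highest carmofur library was below the lowest vehicle library. In U251P, E2F8 had the smallest p-value of the genes on the higher side, at 10.7, 11.6 and 13.6 CPM with vehicle and 17.9, 17.3 and 12.8 CPM with carmofur, which overlapped (log2 change 0.43, 95% interval -0.00 to 0.86, adjusted p = 0.999). CCNE1, the cyclin that starts S phase, was 13.9, 9.44 and 5.28 CPM with vehicle and 10.3, 4.83 and 10.5 CPM with carmofur in U251T, with a wide interval (log2 change -0.32, 95% interval -1.36 to 0.73). It was also on the lower side in U251P, at 14.0, 9.81 and 12.1 CPM with vehicle and 10.0, 7.16 and 9.62 CPM with carmofur (log2 change -0.43, 95% interval -0.93 to 0.06). CCNE2 was 51.9, 23.8 and 42.2 CPM with vehicle and 30.0, 20.3 and 21.1 CPM with carmofur in U251T, which overlapped (log2 change -0.64, 95% interval -1.34 to 0.06).

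Fork protection and the S phase checkpoint held 5 genes, all tested in U251T, of which 4 fell. CLSPN, the adaptor that hands the checkpoint signal to CHEK1, was 137, 142 and 128 CPM with vehicle and 32.1, 49.3 and 84.4 CPM with carmofur and fell by 1.44 on the log2 scale (SE 0.25, adjusted p = 0.000517). Its carmofur libraries were widely spread, the highest still being below the lowest vehicle library. BRCA1, which protects stalled forks, was 37.2, 30.6 and 52.8 CPM with vehicle and 13.5, 10.6 and 15.8 CPM with carmofur and fell by 1.57 on the log2 scale (SE 0.34, adjusted p = 0.00311). TIMELESS, of the fork protection complex, was 24.8, 23.0 and 19.4 CPM with vehicle and 9.31, 5.80 and 15.8 CPM with carmofur and fell by 1.31 on the log2 scale (SE 0.40, adjusted p = 0.0294). For both, every carmofur library lay below every vehicle library. TIPIN, its partner, was 16.3, 15.9 and 15.8 CPM with vehicle and 17.6, 11.6 and 10.5 CPM with carmofur, which overlapped (log2 change -0.22, 95% interval -0.998 to 0.56). CHEK1, the checkpoint kinase, was 44.9, 48.3 and 44.0 CPM with vehicle and 28.97, 21.3 and 26.4 CPM with carmofur and fell by 0.86 on the log2 scale (SE 0.26, adjusted p = 0.0272). CHEK1 shares a strand and sequence span with STT3A, so that part of its counts could belong to that gene. BRCA1, POLA1 and RFC3 are among further genes of the set that overlap other counted genes. PRIM1 overlaps NACA and FEN1 overlaps FADS2 on the same strand, while MCM2 overlaps TPRA1 and RFC4 overlaps EIF4A2 on the other strand. In U251P, the log2 changes of the 5 fork and checkpoint genes ran from -0.10 to 0.11 and each lay within 1 SE of 0.

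Single libraries decided some of the calls in U251T. Of the 20 genes, 14 were called whichever of the 6 libraries was left out: ATAD2, BRCA1, CDC6, CLSPN, E2F1, E2F8, GINS1, LIG1, MCM10, MCM3, MCM7, PCNA, POLA1 and RFC3. GMNN lost its call without carmofur replicate 1 (log2 change -0.77, adjusted p = 0.181) and without vehicle replicate 1 (adjusted p = 0.051) or 2 (adjusted p = 0.076). MCM4 lost it without carmofur replicate 3 (adjusted p = 0.0687) and without vehicle replicate 1 (adjusted p = 0.09). TIMELESS lost it without carmofur replicate 1 (adjusted p = 0.0951) or 2 (adjusted p = 0.148) and without vehicle replicate 1 (adjusted p = 0.0868) or 2 (adjusted p = 0.0608). CHEK1 kept it without carmofur replicate 1 and vehicle replicate 3 and lost it without the others, at adjusted p-values from 0.055 to 0.114. RPA2 kept it only without carmofur replicate 3, with adjusted p-values from 0.0576 to 0.19 otherwise, and RFC1 lost it without any 1 of the 6 (adjusted p = 0.0505 to 0.144). The sign stayed negative for each of the 6 genes.

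The difference between the lines was tested itself, as the carmofur effect in U251T minus that in U251P over the 12 libraries. It was called for 25 of the 50 genes (50%), all of them lower in U251T, where 2.49% of 13070 genes were called lower and 1.8% higher. Without U251T carmofur replicate 1 the count was 15. CHEK1 and RFC1 were called in U251T without a called difference (adjusted p = 0.0994 and 0.456). The 7 genes called in the difference alone, CDC45, MCM2, MCM5, ORC1, POLE, POLE2 and RFC4, were too low for the U251T test, entered the fit through their U251P counts and had at most 40 counts in any U251T library. Among the 5870 genes that passed the filter of each line, the difference was called for 18 of 30 replication genes (60%), beside 5.09% of the 5870 called lower and 3.51% called higher. Among the well-covered genes the difference was -1.78 for ATAD2 (SE 0.23, adjusted p = 1.2e-06), -1.53 for MCM3 (SE 0.26, adjusted p = 0.000178) and -0.83 for PCNA (SE 0.24, adjusted p = 0.0433). ATAD2 and MCM3 were among the 14 genes whose difference was called whichever of the 12 libraries was left out. The difference of PCNA was lost without any 1 of 8 libraries, 4 of each line, with adjusted p-values up to 0.167. For CCNE1 it was 0.01, with a 95% interval of -1.12 to 1.15 that spans a change in either direction.

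Vehicle levels already differed between the lines. Of the 50 genes, 32 (64%) were called lower in U251T and 7 (14%) higher, where 47.6% of the 12047 genes tested were called lower and 39.3% higher. Of 30 housekeeping genes, 16 were called lower and 7 higher, so that lower levels in U251T were not particular to replication genes. The median log2 difference was -1.25 for the 50 genes, -0.65 for the housekeeping genes and -0.33 over all genes. The 7 higher genes were E2F1 (log2 difference 2.90, SE 0.16), E2F8 (2.36, SE 0.22), ATAD2 (1.59, SE 0.14), RFC1 (0.69, SE 0.14), PCNA (0.64, SE 0.15), GINS1 (0.53, SE 0.22) and POLD3 (0.50, SE 0.17). Among the lower ones were MCM2 (-3.87, SE 0.24), RPA2 (-2.14, SE 0.21) and CLSPN (-0.78, SE 0.15). ATAD2 and PCNA, higher in U251T with vehicle, were with carmofur at 258 to 330.1 CPM and 131 to 146 CPM, beside 295 to 319 CPM and 126 to 161 CPM in the U251P carmofur libraries, each scaled within its own line. With carmofur, E2F8 overlapped between the lines too, while RFC1, POLD3 and E2F1 stayed higher in U251T (E2F1 97.5 to 127 CPM beside 34.9 to 54.8 CPM). GINS1 was lower there, at 7.91 to 10.6 CPM beside 21.5 to 26.2 CPM. The lines were not tested against each other with carmofur.

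Promoter words and calls can be set side by side. E2F words stood in 10 of the 16 promoters given for the genes called lower in U251T, in 2 of the 8 given for genes tested and not called, and in 7 of the 17 given for genes not tested. CDC6, MCM3, MCM7, E2F1, CLSPN and PCNA, printed above, are among the 10. GMNN, CHEK1, BRCA1, MCM10, RFC1 and TIMELESS fell too and held none of the searched words in the window read. Each gene was read at a single start site, for BRCA1 in the window chr17:43170278-43170577 (minus strand). Other start sites of a gene were not searched, so that an E2F word may stand there.

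Other gene lists were counted in the same way, with examples chosen by the smallest p-values. Of 47 further replication genes, 37 were tested in U251T, 18 fell and 0 rose, with 1 higher at an unadjusted p-value under 0.05 (median log2 change -0.74), among them CCNA2, the cyclin of S and G2 phase (-2.51, SE 0.19, adjusted p = 8.3e-08), NASP, a histone chaperone (-1.59, SE 0.17, adjusted p = 3.3e-06), and CDK2, the kinase that cyclins A and E activate (-2.08, SE 0.26, adjusted p = 2.5e-05). Of 12 genes of deoxynucleotide supply, 5 could be tested and all 5 fell (median -1.06), among them DUT, which removes dUTP (-1.44, SE 0.17, adjusted p = 1.5e-05), RRM1, the large subunit of ribonucleotide reductase (-1.06, SE 0.14, adjusted p = 4.2e-05), and SHMT1, a folate enzyme (-1.70, SE 0.24, adjusted p = 8.4e-05). Of 30 mitosis genes, 26 were tested and 25 fell (median -2.00), with the smallest p-values for HMMR (-2.71, SE 0.17, adjusted p = 2.7e-08) and ASPM (-2.31, SE 0.15, adjusted p = 2.7e-08), both of the spindle. Of 30 housekeeping genes, 27 were tested, 3 fell and 1 rose (median -0.09). The difference between the lines was called, lower in U251T, for 16 of 47 further replication genes, 6 of 12 genes of deoxynucleotide supply, 25 of 30 mitosis genes and 1 of 30 housekeeping genes. In U251P edgeR called 0 genes of these 4 lists, with 1 housekeeping gene, EEF1A1, at an unadjusted p-value under 0.05 and medians of -0.01, 0.04, 0.00 and -0.04.

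**Figure D4:**
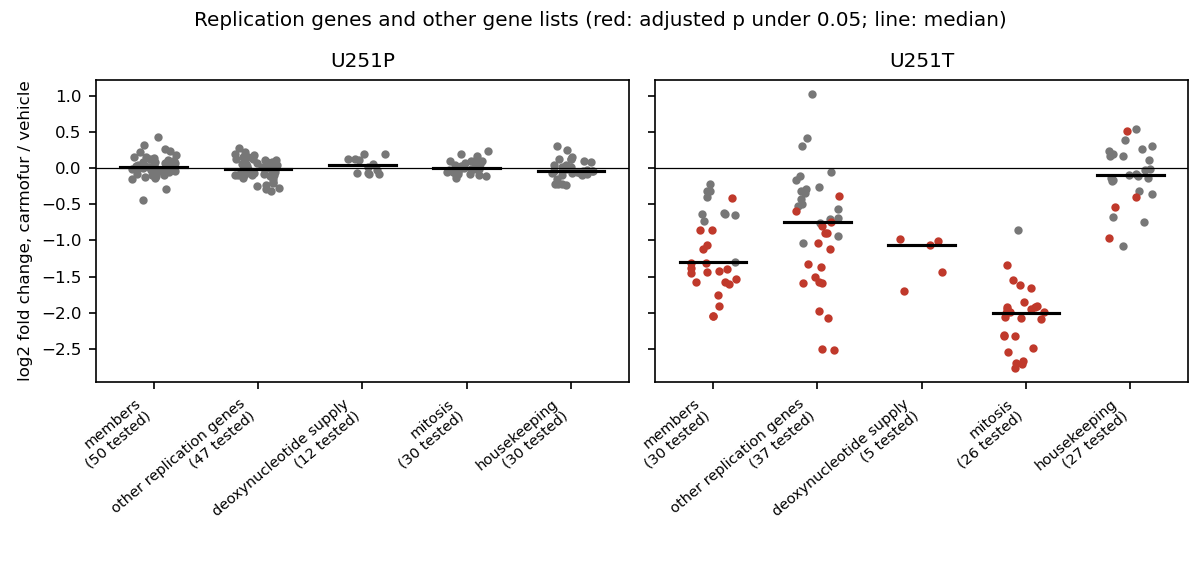
Log2 fold change of carmofur over vehicle (vertical axis) for each gene tested of 5 lists in U251P (left) and U251T (right), with called genes in red and the median as a black line. In U251T the medians are -1.30 for the 30 replication genes tested, -0.74 for other replication genes, -1.06 for deoxynucleotide supply, -2.00 for mitosis and -0.09 for housekeeping, and in U251P all 5 lie between -0.04 and 0.04.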

How the data were processed

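RNA was profiled by QuantSeq FWD 3′ mRNA sequencing in 12 libraries, 3 vehicle and 3 carmofur libraries of each line. The authors made single-end reads of 75 bases on a NextSeq 500 and used Lexogen's BlueBee pipeline for trimming and mapping. The submitters' processing notes name hg38, and the annotation release, the counting tool and the use of strand are not given in the sources used here. The deposited values are raw counts, whole numbers per Ensembl gene without normalization, and how PCR copies were treated is not stated. A 3′ tag method counts transcripts near their poly(A) end, so counts do not scale with transcript length.

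Symbols were found for 56104 of the 60107 identifiers, and gene overlaps came from GENCODE release 29. Within each line, edgeR (version 4.0.16, R version 4.3.3) tested carmofur against vehicle with TMM factors, filterByExpr and its quasi-likelihood test. Adjustment was by Benjamini-Hochberg over all genes tested, with calls at 0.05. The interaction of line and treatment and the vehicle comparison of the lines used the same test. Intervals are 95% intervals from the SE and the test's degrees of freedom. For 3 libraries against 3, the smallest two-sided p-value of an exact permutation test is 0.1, so p-values come from the models across all genes. DESeq2 (version 1.42.0) was an alternative. Others were upper-quartile factors, no filter, a minimum of 10 counts in each library, a threshold of 0.1, a block for the replicate number, 1 joint fit of all 12 libraries, and omission of each library. Thinning the U251T libraries to the smallest total was chosen after seeing the data.

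The members and lists were chosen with earlier results of these data known. Named were all 50 members by role, with values in every library for those at an unadjusted p-value under 0.05 in either line, the 2 in each line and direction with the smallest p-values and a fixed set of representatives, and of each other list up to 4 genes by the smallest p-value. COL1A1, COL3A1, VIM, GFAP, SOX9, CD44, EEF1A1 and the genes that describe the libraries were named after their values were seen. Lists of blood cell, epithelial and neuron markers were checked too. Their summed levels were at most 5.38, 232 and 80.6 CPM in any library. Of these lists, 0, 3 and 2 genes could be tested in U251P and 0, 0 and 1 in U251T. None of the genes tested was called by edgeR or had an unadjusted p-value under 0.05, and the rest of these lists was not tested. The steps were tested on simulated data in which 200 genes were changed by 1.5 on the log2 scale. Within U251P, edgeR recovered 98% of 198 changed genes among 11453 tested, within U251T 95.9% of 195 among 7067, and for the interaction 82.5% of 200 among 13009. False calls numbered 12, 8 and 3. The changed genes were drawn from those that passed the filter on low counts. The simulated spread was equal for all genes and smaller than the common spread estimated in U251T. These shares are therefore not the power for low genes, such as the replication genes not tested in U251T. Counts of any 2 replicates differed beyond sampling noise (chi-square per degree of freedom from 1.65 to 10.6), so each was taken as its own library. Python (version 3.11.15), pandas (version 2.3.3) and matplotlib (version 3.10.9) served for the tables and plots.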

Additional observations from a re-analysis of the deposited data

Results flagged for a closer look

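For 25 replication genes a difference in the carmofur effect between the lines was called by the interaction test of edgeR, 18 of them with enough counts to be tested in each line. The values are the log2 carmofur effect in U251T minus that in U251P, and all are negative. In origin licensing the difference was -1.66 for CDC6, -1.32 for GMNN, -1.53 for MCM3, -1.14 for MCM4 and -2.09 for MCM7. In helicase activation it was -2.08 for GINS1 and -1.61 for MCM10, and among the polymerases -1.21 for POLA1. For the clamp and its loader it was -0.83 for PCNA and -1.49 for RFC3, for single-strand binding and ligation -1.61 for RPA2 and -1.77 for LIG1, and for chromatin and transcription -1.78 for ATAD2, -1.71 for E2F1 and -2.42 for E2F8. Among fork and checkpoint genes it was -1.59 for CLSPN, -1.73 for BRCA1 and -1.34 for TIMELESS. Some calls were often lost under the alternatives. TIMELESS was called in 7 of 16, MCM4 in 9 of 16, PCNA in 9 of 17, GMNN in 10 of 16 and RPA2 in 12 of 16. The other 7 genes passed the filter through U251P only. Their fitted values of -2.75 for MCM2, -2.00 for MCM5, -3.32 for ORC1, -3.29 for CDC45, -2.46 for POLE, -3.12 for POLE2 and -1.96 for RFC4 depend on how the fit treats low counts and are neither sizes nor bounds. Over the 3 libraries of each U251T group, ORC1 had 18 counts with vehicle and 1 with carmofur, a carmofur to vehicle ratio per total count of 0.107 (exact 95% interval 0.00257 to 0.678, counting error only). MCM2 had 34 and 3 counts (ratio 0.17, interval 0.0334 to 0.54), and CDC45 had 34 and 2 (ratio 0.113, interval 0.0132 to 0.442). Of the 16 alternatives, MCM5 was called in 2, ORC1 in 3, RFC4 in 6, CDC45 and MCM2 in 13, POLE in 15 and POLE2 in 16. The 2 lines also differed in depth and in the markers given above, and which of these differences goes with the carmofur effect cannot be told apart.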

How the results depend on the processing

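In U251P no alternative called a replication gene, and over all genes 0 calls became 19 without a filter, 1 with the replicate block and 0 to 1 when a library was left out, the 1 arising without carmofur replicate 3. In U251T the 20 replication genes called became 11 at 10 counts or more in every library, where 14 were tested, 12 in thinned libraries, where 20 were tested, and 14 to 22 when a library was left out. The 1231 genes called in all became 2078 with the replicate block and 808 in thinned libraries, where fewer genes were tested. The called differences between the lines, 25, became 10 at 10 counts or more in every library and 15 to 24 when a library was left out. The 39 calls between the lines in vehicle became 18 at 10 counts or more. The median log2 change of the replication genes in U251P, 0.02, lay between -0.02 and 0.07 under the alternatives and below 0 in 3 of 12, so that it has no stable sign, while in U251T it stayed between -1.43 and -1.17. Single genes were followed under the alternatives for 4 genes in U251P, 22 in U251T and the 25 called differences. None of these changed direction where it was tested, and the other values given for single genes were not followed. Deviations of libraries with the same replicate number correlated at 0.214, -0.0331 and 0.269 in U251P and at 0.0846, 0.342 and 0.0821 in U251T, so that the numbers were not taken to pair the libraries, and not every library correlated best with its own number. With the replicate block, 21 replication genes were called in U251T, 0 in U251P, 28 in the difference and 37 in vehicle. Among the single genes followed, 609 values under the alternatives kept their side of the threshold, 113 lost the call and 4 gained it. The low counts of U251T limit 20 of the 50 genes, for which no fold change is given in that line.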

Other observations

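The 20 replication genes that could not be tested in U251T were not absent as a group. Their summed level was 108, 101 and 118 CPM with vehicle and 38.2, 31.5 and 57.3 CPM with carmofur, from 140, 284 and 67 counts and 37, 34 and 22 counts. The carmofur libraries thus lay below the vehicle libraries for this sum too, with no test made of it. In U251P the same 20 genes summed to 815 to 964 CPM with vehicle and 835 to 970.4 CPM with carmofur, which overlapped. RFC5, a clamp loader subunit, had 1, 4 and 1 counts with vehicle in U251T and 2, 0 and 0 with carmofur, against 224 to 351 counts in the U251P vehicle libraries. CHAF1B, of the chromatin assembly factor, had 12, 30 and 7 counts with vehicle in U251T and 1, 3 and 3 with carmofur.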
